A study of Mus musculus with 9 samples.

Results

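Chemokines and their receptors were examined in the liver transcriptome of control mice and of sedentary or treadmill-trained mice with NASH. Members were all genes listed under a symbol that begins with Ccl, Cxcl, Cx3cl, Xcl, Ccr, Cxcr, Cx3cr or Xcr followed by a digit, without regard to their values. There were 58 such genes among the 17846 genes listed, namely 38 ligands, 19 receptors and 1 pseudogene, Ccl19-ps1. Each ligand and receptor was assigned to the leukocyte that it is best known to attract or to mark, and the levels of ligands were set beside those of their receptors in the 3 groups.

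Chemokines are small secreted proteins that bind to glycosaminoglycans on the vessel wall and in tissue, and form gradients along which leukocytes move. Their receptors are G protein-coupled receptors carried mainly by the leukocytes, whereas the ligands come both from leukocytes and from the parenchymal, endothelial and stromal cells of an injured tissue. In the liver, the CCL2-CCR2 axis is known for drawing monocytes from the blood, the CXCR2 ligands for drawing neutrophils, and the CXCR3 and CXCR6 ligands for positioning T, NK and NKT cells.

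All mice were wild type males labelled C57/BL. Control mice received a normal diet and no training. NASH was induced with the Ath diet, an atherogenic diet with cholesterol and cholate, which the sedentary NASH mice ate for 20 weeks in all. NASH+Exercise mice received the Ath diet for 12 weeks and were then trained for 8 weeks, starting at 20 weeks of age. The labels do not state whether these mice stayed on the Ath diet during the training. If they did not, training and a shorter time on the diet cannot be told apart. Liver was taken after an overnight fast. No allele or transgene was involved. The model is dietary, and the effects of cholate and of cholesterol on the liver cannot be told apart in it.

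Each group held 3 mice with a library each, numbered 3, 4 and 29 in Control, 5, 19 and 20 in NASH and 8, 18 and 22 in NASH+Exercise, and values are listed in this order. The total of estimated counts per mouse was between 20086004 and 22495449. Levels of a gene are given as TPM (a transcript abundance scaled for transcript length and library), and differences as log2 fold changes of TMM-normalized counts from edgeR with their standard errors (SE). A gene was called when its adjusted p was under 0.05 and its absolute log2 fold change was above 1. The choice of scale matters in these livers, since scaling by library size alone moved the median log2 fold change over all tested genes from 0.01 to 0.36 between NASH and Control mice, and from -0.03 to -0.23 between NASH+Exercise and NASH mice. Overlap between groups was therefore judged on TMM-normalized counts. Markers of hepatocytes were at 73860 to 108700 TPM in sum in each of the 9 mice, and 2 skeletal muscle markers reached at most 0.27 TPM. These are bulk samples, in which fewer cells of a type and less RNA per cell cannot be told apart.

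Of the 58 genes, 36 had enough counts for a test, 24 ligands and 12 receptors. The other 22 are accounted for by their estimated counts. No library held more than 19 counts of any of them. Ccl8, a monocyte and Th2 cell attractant, had 1 count in the 3 Control mice together, 38 in the NASH mice and 16 in the NASH+Exercise mice. Ccl12 had 1, 19 and 12 counts, Cxcl3 had 0, 12 and 2, and Ccl20, the ligand of CCR6, had 0, 9 and 2. Among receptors, Ccr3, the eosinophil receptor, had 0, 15 and 9 counts, Ccr6 had 1, 14 and 4, Ccr4 had 1, 8 and 4, and Ccr8 had 0, 4 and 5. Ccl1, Ccl11, Ccl17, Ccl28, Cxcl15, Cxcl17, Ccr10, Ccr1l1, Cxcr1, Ccl21b, Ccl21c, Ccl21d, Ccl27b and Ccl19-ps1 made up the rest and held 0 to 14 counts per library. Ccl21c and Ccl21d had the same values in every mouse, and Ccl21a to Ccl21d are near-identical copies, as are Ccl27a and Ccl27b, so how the reads were split among them is uncertain.

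Several of the genes lie in clusters of GRCm38.p6. The neutrophil ligands Cxcl5, Cxcl3, Cxcl15, Cxcl1 and Cxcl2 share 147 kb of chromosome 5 (chr5:90759298-90905938), and Cxcl9 and Cxcl10 lie further along it (chr5:92321331-92348889). Ccl2, Ccl7, Ccl11, Ccl12, Ccl8 and Ccl1 lie at chr11:82035577-82179812, and Ccl5, Ccl9, Ccl6, Ccl3 and Ccl4 at chr11:83525778-83664683. A receptor cluster on chromosome 9 (chr9:123767211-124109140) holds Ccr9, Cxcr6, Xcr1, Ccr1, Ccr1l1, Ccr3 and Ccr2.

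The RefSeq promoter table of GRCm38.p6 held 43 of the 58 genes. In the 250 bases before an annotated start, a match to the NF-kB consensus on either strand was found for 10 of the 43 genes (23.3%), against 8.23% of 27025 genes in the table and 10.6% of those that were tested for expression. The core of the interferon-stimulated response element, GAAANNGAA, was found for 8 genes (18.6%, against 8.18% of all genes), and the GAS core, TTCNNNGAA, which STAT factors bind, for 4 (9.3%, against 8.13%). The TATA box, TATAAA, was found for 13 (30.2%, against 14.3% of all genes and 8.68% of those tested). Both strands were searched, the NF-kB consensus is close to its own reverse complement, so neighbouring matches overlap, and a match in these letters is not a binding site. Neighbouring genes of a cluster descend from common ancestors, so their matches are not independent.

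The stretches below are shown because Cxcl1, Cxcl2 and Cxcl3 hold the same NF-kB match although their levels differed widely, because Cxcl10 joins both kinds of motif, and because Cxcl12, on average the most abundant ligand, held none of the 4 motifs. Capitals mark the matches, and each stretch reads 5′ to 3′ on the strand of the gene, the first 3 and the last ending at the base before the start.
Cxcl1 (chr5:90891135-90891244, + strand): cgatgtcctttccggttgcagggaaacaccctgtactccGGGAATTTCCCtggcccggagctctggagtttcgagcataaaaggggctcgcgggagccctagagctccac
Cxcl2 (chr5:90903789-90903898, + strand): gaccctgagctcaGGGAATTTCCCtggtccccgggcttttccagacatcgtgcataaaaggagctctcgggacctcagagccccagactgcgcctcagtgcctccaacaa
Cxcl3 (chr5:90785991-90786100, + strand): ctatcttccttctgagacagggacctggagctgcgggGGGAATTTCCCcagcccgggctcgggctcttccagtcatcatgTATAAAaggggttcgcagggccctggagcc
Cxcl10 (chr5:92348980-92349109, - strand): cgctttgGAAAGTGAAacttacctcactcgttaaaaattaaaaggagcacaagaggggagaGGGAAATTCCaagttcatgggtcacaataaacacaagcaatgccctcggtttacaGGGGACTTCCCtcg
Cxcl12 (chr6:117168425-117168534, + strand): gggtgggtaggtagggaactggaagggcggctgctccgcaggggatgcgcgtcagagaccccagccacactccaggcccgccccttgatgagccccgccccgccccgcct
The NF-kB match began 71 bases before the start in Cxcl1, 97 in Cxcl2 and 73 in Cxcl3. Cxcl3 alone of these 3 also held the exact letters TATAAA, 30 bases before the start. The stretches of Cxcl1 and Cxcl2 hold cataaaa, which the search for exact letters did not count. In Cxcl10, the interferon element began at base -213 and NF-kB matches at -159 and -104. Other matches to the NF-kB consensus lay before Ccl1, Ccl20, Ccl9, Ccr1, Ccr3 and Ccr6, and other matches to the interferon element before Ccl1, Ccl19, Ccl3, Ccr2, Cxcl14, Cxcl9 and Cxcr1.

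**Figure D1:**
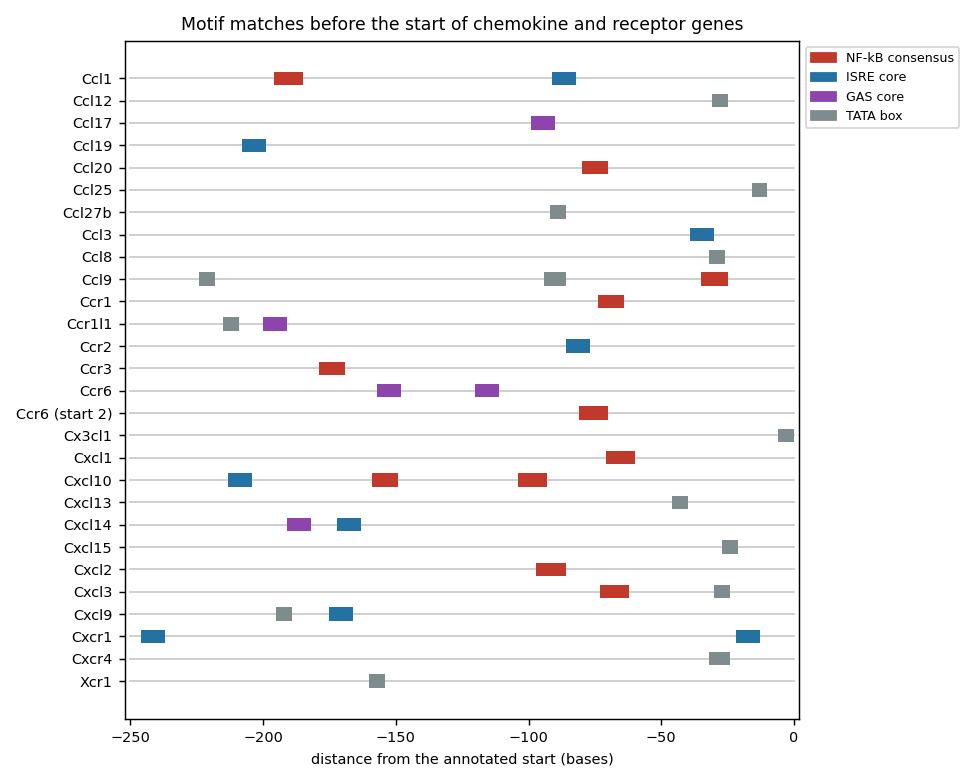
Positions of motif matches in the 250 bases before the annotated start, with the distance from the start in bases on the x axis and a line for each chemokine or receptor promoter that holds a match. Coloured blocks are the 4 motifs, and the NF-kB blocks of Cxcl1, Cxcl2 and Cxcl3 begin 71, 97 and 73 bases before the start.

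To see which leukocyte-attracting signals distinguish the NASH liver, NASH mice were compared with Control mice. Most of the chemokine and receptor genes that passed the filter were up-regulated: 27 of 36 genes were called higher and 1, Ccl21a, was called lower, while 15.3% of all 13619 genes tested were called higher and 3.03% lower. The 27 comprised 19 of 24 ligands and 8 of 12 receptors. The median log2 fold change was 3.13 for ligands and 2.70 for receptors, beside 0.01 for all genes. The filter, with a minimum count of 10, let genes with few Control counts into the test only through the other groups. For such genes a rise was favoured in advance. Among them were Ccr1, Xcl1, Ccl3, Ccl7, Cxcl2 and Cxcl5, with at most 3 counts in any Control library. The number called higher and the medians carry this limit. The genes that were not called were Cxcr2, Xcr1, Cxcl13, Cxcr5, Ccl25, Ccl27a, Ccr9 and Cxcl12.

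NASH+Exercise mice were compared with NASH mice to learn which of these signals were lower after training. None of the 36 genes was called, and 0.14% of all genes tested were (19 genes). The direction was nevertheless uneven, since 31 genes had a log2 fold change below 0 and 5 above 0, with a median of -0.50 beside -0.03 for all genes. Genes that passed the filter only through the NASH mice, such as Xcl1 and Cxcl5, were favoured in advance to lie below 0. At an unadjusted p under 0.05, 11 of the 36 genes were lower and 1, Cxcl1, was higher, against 10.7% of all genes lower and 4.6% higher. The 11 were Ccl5, Cx3cl1, Cxcl16, Cxcl5, Cxcl9, Xcl1, Ccr2, Cx3cr1, Cxcr3, Cxcr4 and Cxcr6. The groups did not overlap for 13 lower genes and for Cxcl1, against 14.9% and 9.16% of all genes. In unnormalized TPM, 21 of the 36 were lower without overlap, but so were 37.6% of all genes tested.

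The call in this comparison depended on the test. DESeq2 fitted to the 9 mice called 6 of the genes, Cxcl1 higher and Ccl5, Ccr2, Cx3cl1, Cx3cr1 and Cxcl9 lower, DESeq2 fitted to the 6 mice of both groups called 3 (Ccl5, Ccr2 and Cx3cr1), and limma on log2(TPM + 1) called 2 (Ccr2 and Xcl1). All 12 receptors had a log2 fold change below 0, with a median of -0.71, and 19 of 24 ligands did, with a median of -0.32. This held for the receptors also with RLE size factors and with library size alone. Both comparisons use the same NASH mice, so they are not independent.

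**Figure D2:**
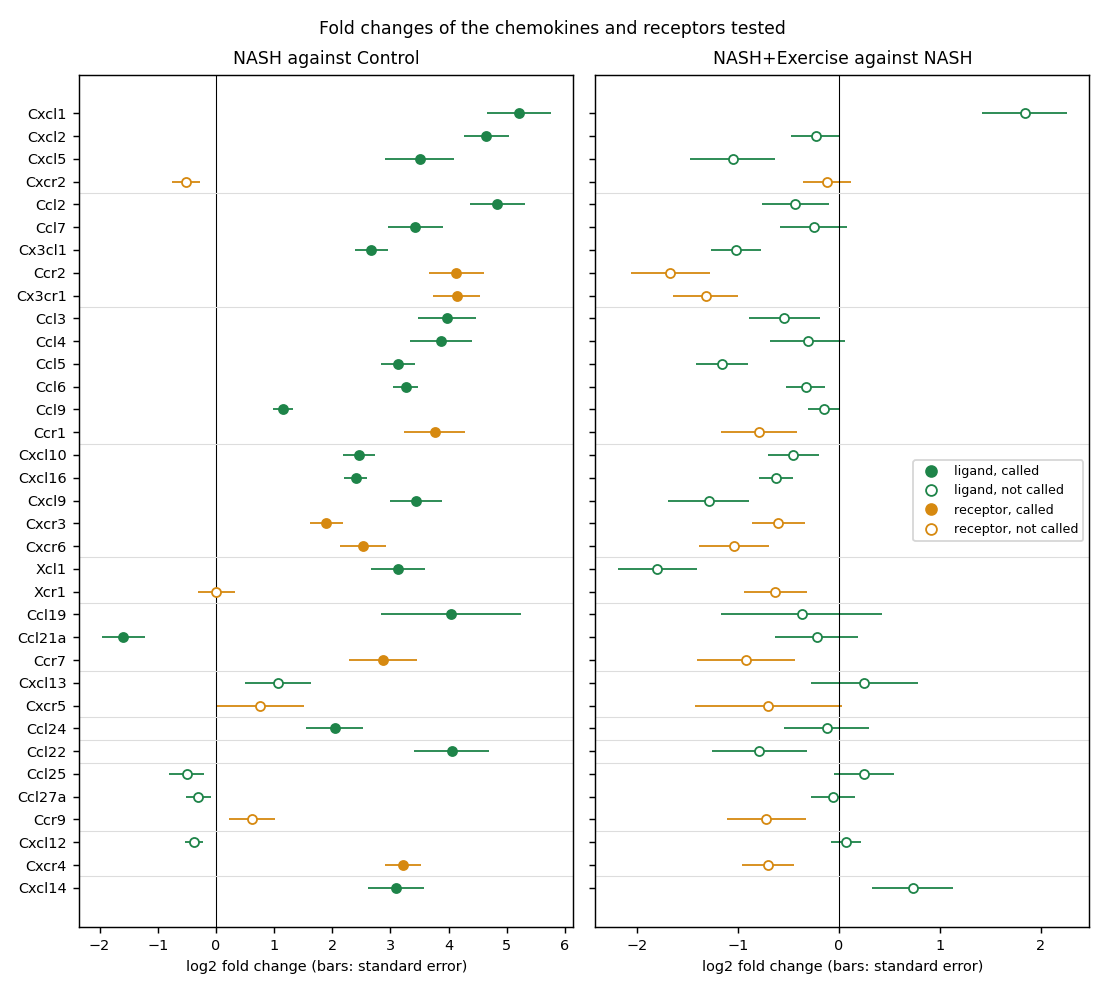
Log2 fold change of the tested genes reported here (x axis, bars are SE), NASH against Control on the left and NASH+Exercise against NASH on the right, ordered by the leukocyte attracted, with filled points for called genes. On the left the values run from -1.59 (Ccl21a) to 5.21 (Cxcl1), and on the right no point is filled, with values from -1.80 (Xcl1) to 1.84 (Cxcl1).

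All 3 neutrophil ligands tested were up-regulated in NASH, and their receptor was not called. Cxcl1, a CXCR2 ligand and potent neutrophil attractant, was at 1.72, 1.21 and 1.65 TPM in Control mice, at 71.8, 83.7 and 73.1 in NASH mice and at 114, 156 and 363 in NASH+Exercise mice. The 3 groups did not overlap, and the trained mice were the highest. Its log2 fold change was 5.21 (SE 0.55, adjusted p = 0.000118) in NASH against Control. After training it was a further 1.84 (SE 0.42, adjusted p = 0.128), which was not called, and it was the only one of the 36 genes with an unadjusted p under 0.05 in this direction.

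The size of the difference after training rested on a single mouse. Without NASH+Exercise replicate 22, the log2 fold change of Cxcl1 against NASH was 1.07 (adjusted p = 0.102), and without replicate 8 it was 2.19 (adjusted p = 0.0404), which was called. Against Control mice, Cxcl1 was up-regulated in NASH+Exercise mice by 7.04 (SE 0.57, adjusted p = 4.92e-05).

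Cxcl2, a neighbouring CXCR2 ligand with the same NF-kB match, did not follow it. Its level was 0.08, 0.07 and 0.24 TPM in Control mice, 4.08, 5.31 and 3.89 in NASH mice and 3.43, 2.97 and 2.80 in NASH+Exercise mice. The Control libraries held 5 counts of it together and the NASH libraries 174, a ratio of 26.7 (95% interval 11.2 to 83.2, counting error only). It was called higher in NASH (log2 fold change 4.65, SE 0.38) and had a log2 fold change of -0.23 (SE 0.24, adjusted p = 0.699) after training. Cxcl5 was likewise called higher in NASH (3.50, SE 0.59), from 4 counts in Control to 64, and its log2 fold change after training was -1.05 (SE 0.42, adjusted p = 0.277).

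Cxcr2, the receptor of these ligands on neutrophils, was at 3.82, 2.03 and 4.82 TPM in Control mice, 3.0, 3.50 and 3.35 in NASH mice and 3.43, 2.03 and 2.02 in NASH+Exercise mice. All 3 groups overlapped. The log2 fold change was -0.51 (SE 0.24, adjusted p = 0.12) in NASH and -0.12 (SE 0.24, adjusted p = 0.86) after training. The ratio of Cxcl1 to Cxcr2 TPM therefore lay between 0.342 and 0.596 in Control, 21.8 and 23.9 in NASH and 33.1 and 180 in NASH+Exercise mice. Cxcr2 did not rise in NASH with most of the neutrophil markers below, and which cells held its transcripts was not tested. Of 6 neutrophil markers, 5 were called higher in NASH, among them S100a8 (4.49) and S100a9 (4.26), but not Ly6g (0.62, adjusted p = 0.0593). Their summed level was 6.78 to 11.5 TPM in Control, 84.0 to 110 in NASH mice and 49.6 to 80.4 in NASH+Exercise mice, and none was called between the last 2 groups. In TPM, 37.6% of all genes tested were lower after training without overlap. On normalized counts, 4 of the 6 markers had values below 0 after training and 2 above. The median was -0.23, and 2 markers were lower without overlap. Their part in these results was not tested.

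The monocyte axes rose in NASH on both the ligand and the receptor side, and after training the receptors had the larger negative differences. Ccl2, which draws monocytes through CCR2, was at 0, 0.45 and 0.66 TPM in Control mice, 16.02, 12.9 and 14.9 in NASH mice and 10.96, 8.56 and 7.34 in NASH+Exercise mice. The increase in NASH was 4.84 (SE 0.47, adjusted p = 3.51e-05), and the log2 fold change after training was -0.43 (SE 0.33, adjusted p = 0.566). Normalized counts of the trained and untrained NASH mice overlapped.

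Ccr2 was at 0.29, 0.14 and 0.50 TPM in Control mice, 4.53, 9.89 and 6.76 in NASH mice and 3.13, 1.57 and 0.87 in NASH+Exercise mice. Every NASH mouse was above every mouse of the other groups. Its log2 fold change was 4.13 (SE 0.47, adjusted p = 0.000127) in NASH and -1.67 (SE 0.39, adjusted p = 0.128) after training, for which DESeq2 gave an adjusted p of 0.00296 in the fit of 9 mice and limma one of 0.0498. The ratio of Ccl2 to Ccr2 TPM lay between 0 and 3.21 in Control, 1.30 and 3.54 in NASH mice and 3.50 and 8.44 in trained mice. The Control and NASH ranges overlapped, and the NASH and trained ranges overlapped at their ends.

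Cx3cr1, the fractalkine receptor of patrolling monocytes and of some macrophages, was likewise highest in the NASH mice. It was at 0.34, 0.19 and 0.27 TPM in Control mice, 4.61, 8.5 and 5.02 in NASH mice and 3.52, 1.74 and 0.98 in NASH+Exercise mice, again without overlap. The log2 fold changes were 4.14 (SE 0.40, adjusted p = 3.52e-05) in NASH and -1.32 (SE 0.32, adjusted p = 0.131) after training. Its ligand Cx3cl1, a membrane-bound chemokine of endothelium and epithelium, had fold changes of 2.67 (SE 0.28) and -1.02 (SE 0.25, adjusted p = 0.131). Ccl7, another CCR2 ligand, rose by 3.43 (SE 0.48) in NASH and had a value of -0.25 (SE 0.33) after training.

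Markers of inflammatory monocytes moved with this group. All 4 of 4 were called higher in NASH, and their sum was 3.80 to 9.47 TPM in Control, 72.4 to 99.5 in NASH mice and 23.8 to 49.1 in NASH+Exercise mice. Ly6c2 had a log2 fold change of -1.51 (adjusted p = 0.0855) after training. On normalized counts all 4 had values below 0 after training, 3 of them without overlap, and none was called. The part of these cells in the receptor levels was not tested.

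Ligands and receptors shared by macrophages and effector T cells were all called higher in NASH, 7 of 7. Ccl6, a macrophage chemokine of rodents, was at 3.83, 3.98 and 7.89 TPM in Control mice, 53.7, 81.9 and 64.8 in NASH mice and 49.9, 38.6 and 40.7 in NASH+Exercise mice. It rose by 3.26 (SE 0.22, adjusted p = 5.88e-06) and differed by -0.33 (SE 0.19, adjusted p = 0.436) after training. Its neighbour Ccl9 rose least of the 27 genes (1.15, SE 0.17).

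Ccl5, an attractant of effector T cells and monocytes made mainly by T and NK cells, was at 2.86, 4.92 and 6.47 TPM in Control mice, 46.9, 78.8 and 44.9 in NASH mice and 25.2, 23.0 and 13.9 in NASH+Exercise mice. No 2 groups overlapped. It rose by 3.13 (SE 0.30, adjusted p = 3.29e-05) in NASH and differed by -1.16 (SE 0.26, adjusted p = 0.122) after training, with DESeq2 adjusted p values of 0.00603 and 0.000747 in its fits of 9 and of 6 mice.

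Ccl3 and Ccl4, attractants of the same cells, rose by 3.97 (SE 0.50) and 3.87 (SE 0.53) in NASH. They overlap by 755 bases in the annotation, and since the sources used here do not say whether strand was used in counting, reads in the overlap may be shared. The same limit applies to other genes, among them Cxcr6, which overlaps Fyco1 by 5278 bases, and Cxcl10, which overlaps Art3 by 2252. Ccl19 and Ccl21a overlap the noncoding gene 4930578G10Rik by 1841 and 1132 bases. Ccr1 rose from 6 counts in the 3 Control libraries to 112 in NASH, a ratio of 14.3 (95% interval 6.37 to 39.8, counting error only). The 6 macrophage markers were all called higher in NASH, with sums of 90.7 to 174 TPM in Control, 1262 to 1708 in NASH mice and 842 to 1068 in NASH+Exercise mice. On normalized counts their median log2 fold change after training was -0.34, with 4 of 6 lower without overlap and none called.

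Genes of the CXCR3 and CXCR6 axes, which attract activated T, NK and NKT cells, were called higher in NASH in 5 of 5 cases and had negative values after training in 5 of 5, 4 of them with an unadjusted p under 0.05. Cxcl9, an interferon gamma-induced CXCR3 ligand, was at 2.35, 2.08 and 4.31 TPM in Control mice, 43.8, 23.7 and 55.6 in NASH mice and 19.6, 16.4 and 6.82 in NASH+Exercise mice. It rose by 3.44 (SE 0.44, adjusted p = 0.000347) and differed by -1.29 (SE 0.40, adjusted p = 0.199) after training. Trained mice lay below every NASH mouse and above every Control mouse.

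Cxcl10, another interferon-induced ligand of the same receptor, was at 3.18, 2.55 and 5.70 TPM, at 31.3, 21.3 and 29.7 and at 19.5, 12.1 and 17.7. Its fold changes were 2.46 (SE 0.28) in NASH and -0.45 (SE 0.25, adjusted p = 0.423) after training, and normalized counts of the trained and untrained mice overlapped. Cxcr3 itself was at 0.40, 0.53 and 0.86 TPM in Control mice, 3.39, 2.82 and 2.76 in NASH mice and 1.74, 1.55 and 1.51 in NASH+Exercise mice. It rose by 1.90 (SE 0.29, adjusted p = 0.000545) and differed by -0.60 (SE 0.26, adjusted p = 0.30) after training, with no overlap in either comparison.

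Cxcl16 and its receptor Cxcr6, a marker of liver-resident NKT and T cells, rose by 2.40 (SE 0.19) and 2.53 (SE 0.40) in NASH. After training they differed by -0.62 (SE 0.17, adjusted p = 0.16) and -1.04 (SE 0.35, adjusted p = 0.215). All 6 T cell markers were called higher in NASH, and their sum was 2.1 to 3.34 TPM in Control, 13.8 to 20.7 in NASH mice and 7.33 to 10.7 in NASH+Exercise mice. The sum of 4 NK cell markers was 0.44 to 1.72, 3.70 to 8.44 and 0.70 to 1.71 TPM. These sums are in TPM, on which 37.6% of all genes tested were lower after training without overlap. On normalized counts none of these markers was called after training. Of the 6 T cell markers, 5 had values below 0, 2 of them without overlap, and Cd4 was at 0.20. Only 2 of the NK cell markers had enough counts for a test, and both were lower without overlap. The part of these lymphocytes was not tested.

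Xcl1 and Xcr1 parted in NASH. Xcl1, made by activated T and NK cells, was at 0.17, 0.45 and 0.36 TPM in Control mice, 3.08, 4.76 and 4.58 in NASH mice and 1.17, 1.11 and 0.60 in NASH+Exercise mice. All groups were separate. Its counts were 6, 72 and 18 over the 3 libraries of each group, and the NASH to Control ratio was 9.20 (95% interval 4.03 to 25.9, counting error only). The difference after training was the lowest of the 36 genes, -1.80 (SE 0.39, adjusted p = 0.116), and limma on TPM gave an adjusted p of 0.0181. Xcl1 had 18, 27 and 27 counts in the NASH mice and 7, 7 and 4 in the NASH+Exercise mice. With a minimum count of 10 it was tested only because of the NASH mice, which favours a negative value after training. Xcl1 was among the 2 genes called in NASH but not in NASH+Exercise mice against Control (1.33, SE 0.55, adjusted p = 0.104), the other being Ccl19.

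Xcr1, the receptor that marks cross-presenting dendritic cells, was at 0.86, 0.65 and 0.97 TPM in Control mice, 1.10, 0.94 and 1.28 in NASH mice and 0.76, 0.74 and 0.28 in NASH+Exercise mice. The log2 fold change in NASH was 0.01 (SE 0.31, adjusted p = 0.981), and its sign depended on the scaling. It lies between Cxcr6 and Ccr1, both of which were called higher. After training Xcr1 had a log2 fold change of -0.63 (SE 0.31, adjusted p = 0.365), and normalized counts of the trained and untrained NASH mice overlapped. Of 4 dendritic cell markers 3 were called higher in NASH. All 4 had values below 0 after training, 2 of them without overlap, and none was called. The part of these cells was not tested.

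**Figure D3:**
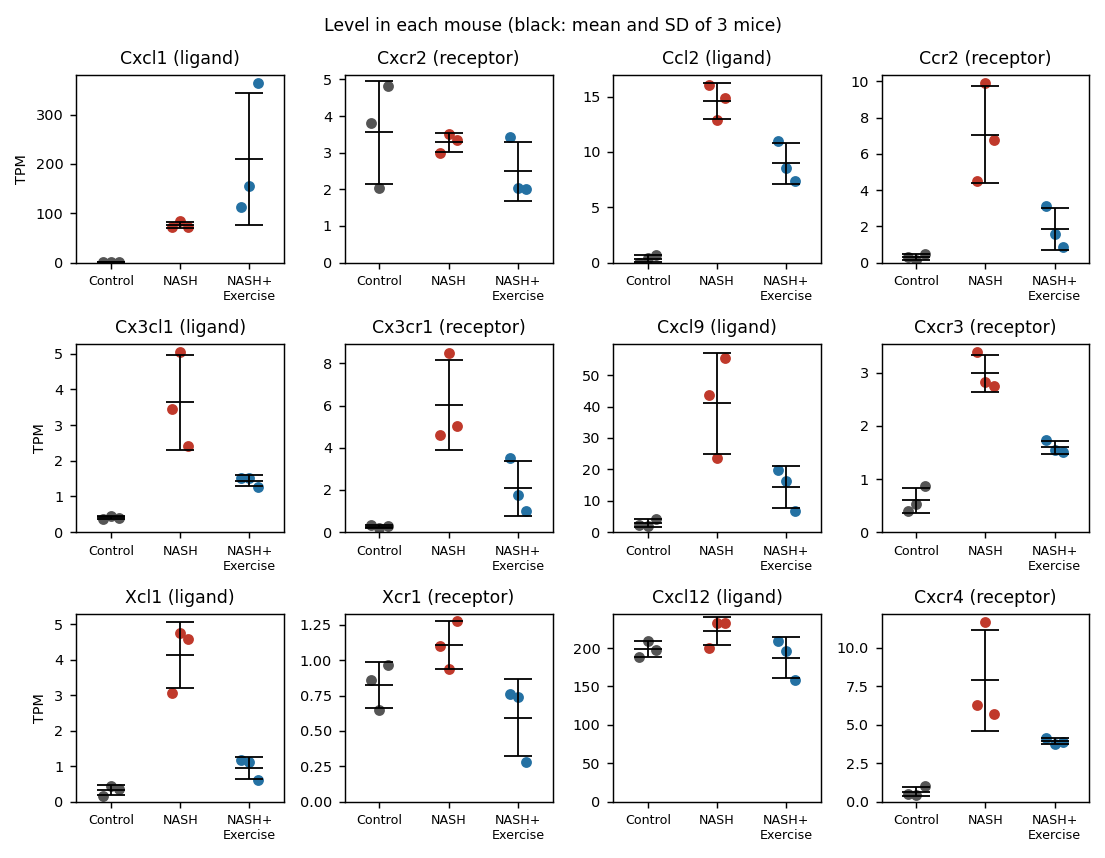
TPM of 6 ligands and of the receptor of each in every mouse (linear y axes from 0, 1 point per mouse, black lines are the mean and SD of 3 mice). Cxcl1 was highest in the NASH+Exercise mice (114 to 363 TPM) with Cxcr2 between 2.02 and 4.82 in all mice, whereas Ccr2, Cx3cl1, Cx3cr1, Cxcl9, Cxcr3 and Xcl1 were highest in the NASH mice.

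The homeostatic lymphoid axis was the only one with a called decrease. Ccl21a, a CCR7 ligand that guides naive T cells and dendritic cells, was at 3.69, 2.35 and 2.5 TPM in Control mice, 1.13, 1.85 and 0.83 in NASH mice and 1.09, 0.53 and 0.97 in NASH+Exercise mice. Control mice were above all others, and the log2 fold changes were -1.59 (SE 0.37, adjusted p = 0.00709) in NASH and -1.81 (SE 0.38, adjusted p = 0.00578) in NASH+Exercise against Control. With limma on log2(TPM + 1) the value in NASH was -0.77 and was not called. Because the copies of Ccl21 are nearly identical, the decrease cannot be assigned to Ccl21a alone.

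Ccl19, the other CCR7 ligand, was at 0, 0.43 and 0.02 TPM in Control mice, 3.42, 6.33 and 1.35 in NASH mice and 4.58, 0.21 and 2.22 in NASH+Exercise mice. It was called higher in NASH (4.04, SE 1.21, adjusted p = 0.0266), but not without Control replicate 3 (3.49), Control replicate 29 (3.42), NASH replicate 5 (4.07) or NASH replicate 19 (3.45). Ccl19 shares sequence with Ccl19-ps1, so its reads may be divided. The receptor Ccr7 was at 0, 0.29 and 0.45 TPM, at 2.42, 2.13 and 2.68 and at 1.29, 1.22 and 0.66, with fold changes of 2.87 (SE 0.58, adjusted p = 0.0035) and -0.92 (SE 0.49, adjusted p = 0.397).

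The B cell pair was not called in any comparison with edgeR. Cxcl13, which draws B cells into follicles, was at 2.52, 0.68 and 3.75 TPM in Control mice, 7.42, 2.70 and 8.21 in NASH mice and 9.51, 5.99 and 3.16 in NASH+Exercise mice. Each group overlapped with the next, and the fold changes were 1.07 (SE 0.57, adjusted p = 0.175) and 0.25 (SE 0.53, adjusted p = 0.869). Cxcr5 stayed at 0 to 0.65 TPM, with values of 0.76 (SE 0.75, adjusted p = 0.466) and -0.70 (SE 0.73, adjusted p = 0.692). None of the 4 B cell markers tested was called either.

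Of the ligands for eosinophils, Th2 and regulatory T cells, Ccl24 and Ccl22 had enough counts for a test, and both were called higher in NASH. Ccl24, an eosinophil attractant made by macrophages, was at 0.64, 0.89 and 1.48 TPM in Control mice, 7.23, 2.58 and 7.68 in NASH mice and 5.43, 2.98 and 4.86 in NASH+Exercise mice. It rose by 2.04 (SE 0.49, adjusted p = 0.00837) and differed by -0.12 (SE 0.42, adjusted p = 0.923) after training. Ccl22, the CCR4 ligand of dendritic cells and macrophages that attracts Th2 and regulatory T cells, was at 0.13, 0 and 0.24 TPM, at 2.47, 1.80 and 3.69 and at 2.07, 1.17 and 0.67, with fold changes of 4.05 (SE 0.65, adjusted p = 0.000885) and -0.79 (SE 0.47, adjusted p = 0.455). Their receptors Ccr3 and Ccr4 had too few counts for a test. Of 4 eosinophil markers, 2 were tested, and Siglecf, which some macrophages also carry, was at 0, 0 and 0.04 TPM in Control mice, 0.42, 0.98 and 0.60 in NASH mice and 0.25, 0.06 and 0.18 in NASH+Exercise mice. It was called higher in NASH (adjusted p = 0.000923) and had a log2 fold change of -1.72 (SE 0.53, adjusted p = 0.187) after training. Il5ra, the other one tested, went the other way in NASH (-0.72, SE 0.34, adjusted p = 0.128) and had -0.11 (SE 0.35) after training. Il5ra was at 1.22, 0.73 and 1.01 TPM in Control mice, nearly all of the Control sum, and at 0.52, 0.86 and 1.03 in NASH mice. The summed level of the 4 was 0.73 to 1.22 TPM in Control, 1.04 to 1.84 in NASH mice and 0.68 to 1.31 in trained mice, and the granule gene Epx was at 0 in all Control and NASH mice. Their part in these results was not tested.

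The 3 genes tested for homing to gut and skin were not called in any comparison. Ccl27a, a skin chemokine in its best known role, was among the more abundant ligands of the Control liver, at 33.1, 28.9 and 23.4 TPM, beside 28.7, 30.7 and 30.2 in NASH and 28.0, 26.0 and 16.8 in NASH+Exercise mice. The fold changes were -0.30 (SE 0.22, adjusted p = 0.318) and -0.06 (SE 0.22, adjusted p = 0.928), and the first changed sign with library size alone (0.07). Ccl25 had values of -0.50 (SE 0.30) and 0.25 (SE 0.30). Its receptor Ccr9 was at 0.11 to 0.37 TPM in all mice, with fold changes of 0.62 (SE 0.39, adjusted p = 0.25) and -0.72 (SE 0.39, adjusted p = 0.403).

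Cxcl12, the constitutive ligand of CXCR4 that retains progenitors and lymphocytes in tissue, was the most abundant chemokine of the Control liver, and only its receptor was called. It was at 188, 209 and 198 TPM in Control mice, 201, 233 and 233 in NASH mice and 209, 196 and 158 in NASH+Exercise mice. On the TMM scale it differed by -0.38 (SE 0.15, adjusted p = 0.0769) in NASH and by 0.07 (SE 0.15, adjusted p = 0.863) after training, and on the TPM scale the signs were the opposite (0.16 and -0.25). Cxcr4 was at 0.49, 0.45 and 1.0 TPM in Control mice, 6.29, 11.7 and 5.73 in NASH mice and 4.15, 3.76 and 3.91 in NASH+Exercise mice. It rose by 3.21 (SE 0.31, adjusted p = 3.43e-05) in NASH and differed by -0.70 (SE 0.26, adjusted p = 0.25) after training, without overlap. The ratio of Cxcl12 to Cxcr4 TPM was 198 to 465 in Control, 19.9 to 40.7 in NASH mice and 40.4 to 52.1 in NASH+Exercise mice.

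Cxcl14, a chemokine of epithelia and stroma whose receptor is not settled, had the highest value after training next to Cxcl1, without being called. Its level was 1.01, 1.49 and 1.14 TPM in Control mice, 11.7, 18.1 and 13.6 in NASH mice and 11.8, 33.6 and 11.7 in NASH+Exercise mice. A single trained mouse, replicate 18, stood above the NASH range. The fold changes were 3.09 (SE 0.48, adjusted p = 0.000962) in NASH and 0.73 (SE 0.40, adjusted p = 0.417) after training.

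Summed over all ligands, the chemokine transcript level was between 273 and 289 TPM in Control mice, 634 and 742 in NASH mice and 589 and 718 in NASH+Exercise mice. The receptors together were at 5.45 to 12.3 TPM in Control, 38.2 to 57.7 in NASH mice and 15.7 to 31.4 in NASH+Exercise mice. On this scale, on which 37.6% of all genes tested were lower after training without overlap, the trained mice overlapped with the NASH mice in the ligand sum and lay below them in the receptor sum. Cxcl1 made up much of the ligand sum. Its share was 0.422 to 0.631% in Control, 10.6 to 11.3% in NASH mice and 18.9 to 50.6% in NASH+Exercise mice, while that of Cxcl12 was 68.5 to 73.0%, 31.3 to 33.7% and 22.01 to 34.8%. Among receptors, Cxcr2 held 37.3 to 51.1% of the sum in Control but 6.07 to 7.90% in NASH, where Cxcr4 held 13.5 to 20.2% and Ccr2 11.9 to 17.1%.

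By class, the sum of monocyte ligands was 20.7 to 23.6 TPM in NASH and 10.9 to 15.5 in NASH+Exercise mice, and that of monocyte receptors 9.14 to 18.4 and 1.85 to 6.65. The sums for activated T, NK and NKT cells were 81.5 to 114 and 38.9 to 61.2 TPM for ligands and 4.67 to 6.44 and 2.11 to 3.17 for receptors. The sum of the neutrophil ligands was 118 to 367 TPM in the NASH+Exercise mice and 77.2 to 91.2 in the NASH mice, and nearly all of it was Cxcl1. The TPM of Cxcl2, Cxcl3 and Cxcl5 had lower means in the NASH+Exercise than in the NASH mice. These sums are in TPM as well and carry no test.

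**Figure D4:**
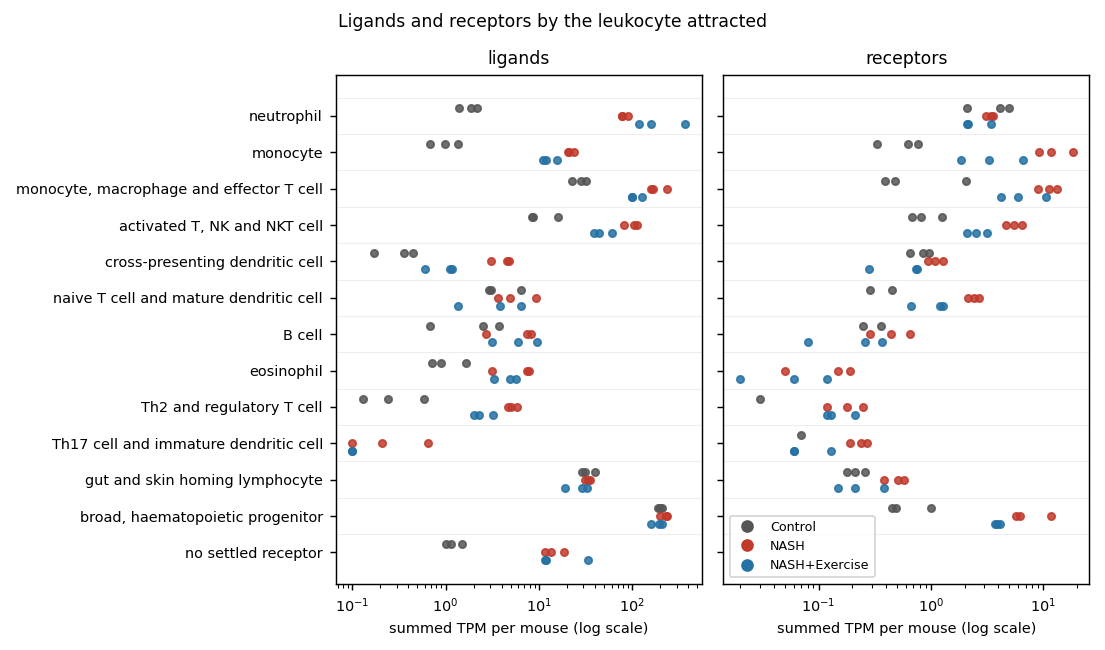
Summed TPM per mouse (log x axis) of ligands on the left and receptors on the right by the leukocyte attracted, with 1 point per mouse, mice with a sum of 0 not drawn, and groups in colour. The sum of neutrophil ligands, nearly all of it Cxcl1, was highest in the NASH+Exercise mice (118 to 367 TPM), and monocyte receptors were at 9.14 to 18.4 TPM in the NASH mice and 1.85 to 6.65 in the NASH+Exercise mice.

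NASH+Exercise mice were also set against Control mice, to see which differences were left after training. In these mice 25 of 36 genes were called higher and 1, Ccl21a, lower, against 10.4% and 3.07% of all genes tested. The median log2 fold change was 1.99, beside 3.10 in NASH against Control, and both comparisons share the Control mice. The limit set by the filter for genes with few Control counts applies here as well. Among the receptors, 8 of 12 were called higher in each of these comparisons, with medians of 1.72 and 2.70. Largest were Cxcl1 (7.04, SE 0.57), Cxcl2 and Ccl2 (both 4.42, SE 0.38 and 0.48) and Cxcl14 (3.81, SE 0.48).

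Genes that act beside or below the chemokine receptors were followed as a list of 67 genes. In NASH, 38 of the 67 were called higher and 2 lower, beside 15.3% and 3.03% of all genes tested. After training none was called, and at an unadjusted p under 0.05, 24 were lower and 0 higher, beside 10.7% and 4.6% of all genes. The median log2 fold change was 1.38 in NASH and -0.41 after training. Largest were the integrin chains Itgam (3.78, SE 0.36) and Itgb2 (3.71, SE 0.26), which form the Mac-1 receptor with which neutrophils and monocytes hold to the vessel wall. Rgs2, a brake on G protein signaling, followed (3.35, SE 0.34). Of the leukocyte integrins and their ligands, 7 of 8 were called higher.

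Both decreases in that list were in genes of the receptor side. Gnai1, an inhibitory G protein subunit of the kind to which chemokine receptors couple, was at 2.25 to 3.54 TPM in Control and 0.50 to 1.09 in NASH mice (-2.26, SE 0.29, adjusted p = 0.000192). Gnai2, the most abundant of the family, was at 70.1 to 84.1 and 165 to 190 TPM, and Gnai3 at 14.6 to 34.9 and 31.0 to 37.6, and neither was called. Gnai2 was higher (0.78, SE 0.13, adjusted p = 0.00088) but below the fold change threshold, and Gnai3 was at -0.09 (SE 0.21, adjusted p = 0.789). Ackr2, an atypical receptor that takes up and degrades CC chemokines, was at 1.58 to 2.27 TPM in Control and 0.81 to 1.42 in NASH mice (-1.35, SE 0.31, adjusted p = 0.0063). The platelet chemokines Pf4 and Ppbp, whose symbols lie outside the naming rule, rose by 2.23 (SE 0.38) and 2.51 (SE 0.47) in NASH.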

How the data were processed

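Liver mRNA of 9 mice was sequenced, 3 per group. The authors deposited an estimated count per gene, listed by Entrez Gene identifier, together with TPM and FPKM values. The submitters' processing notes name HISAT2 2.1.0, Bowtie2 2.2.5, RSEM 1.2.8 and the build GRCm38.p6, and whether strand was used in counting is not given in the sources used here. FPKM values, which the authors scaled by length and depth, were not used. Nothing in the labels gives more than 1 library per mouse, so p-values measure the spread between these mice.

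Symbols came from RefSeq (17728 identifiers) and GENCODE (13), and 105 identifiers had none. RefSeq symbols Ccl19-ps2, Ccl19-ps3, Cxcl11, Ccl26 and Ccl16-ps match the naming rule but were not analysed here. Estimated counts were rounded to whole numbers and tested with edgeR 4.0.16 in R 4.3.3 (filterByExpr, TMM, robust quasi-likelihood fit of all 9 mice, Benjamini-Hochberg adjustment over 13619 genes, two-sided). The common biological coefficient of variation was 0.192. Alternatives were RLE and library-size scaling, no filter, DESeq2 1.42.0, limma 3.58.1 on log2(TPM + 1), fits of the 2 groups compared, no minimum fold change, and leaving out each mouse. The fits were tested on simulated data.

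The members and gene lists were chosen with earlier results of these data known. Leukocyte classes, pathway genes and markers come from general knowledge. Values in every mouse are given for the most abundant tested ligand and receptor of each class, for the 5 genes with the smallest p between NASH+Exercise and NASH, and for the called genes with the largest change between NASH and Control (6 per direction). Cxcl10 was added because its promoter is printed. Pathway genes named by rule are the 3 largest called changes per direction, and the Gnai2, Gnai3, Pf4 and Ppbp values were added after they were seen. Intervals for low counts are 95% exact intervals of a ratio of counts and cover counting error only. The values of 1 receptor, which is included in the counts, medians and sums, are not reported here.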

Additional observations from a re-analysis of the deposited data

How the results depend on the processing

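Between NASH and Control, 26 to 34 of the genes were called over the alternatives (28 with the settings used, 27 to 29 when 1 mouse was left out), and between NASH+Exercise and Control 19 to 27 (26, and 23 to 26). Between NASH+Exercise and NASH the count was 0 with the settings used and 6 with DESeq2 on 9 mice, 3 with DESeq2 on 6 mice, 2 with limma on TPM and 0 to 1 when 1 mouse was left out, the 1 being Cxcl1 without NASH+Exercise replicate 8. The cause was not tested. No paired analysis was possible because the replicate numbers are animal numbers that no 2 groups share.

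Signs were compared only for the genes picked by rule for values in every mouse. Among these, they changed for 9 genes whose differences were small with the settings used. In NASH against Control, Ccl27a was at 0.07 with library size alone and 0.08 with limma, Cxcl12 at 0.16 with limma, and Xcr1 at -0.02 with RLE factors, without a filter and with both DESeq2 fits. In NASH+Exercise against NASH, Cxcl12 was at -0.12 with library size alone and -0.25 with limma, and in NASH+Exercise against Control, Ccr9 was at 0.05 with library size alone. When each mouse was left out in turn, values between NASH+Exercise and NASH ranged from -1.11 to 0.20 for Ccl19, -0.41 to 0.09 for Ccl21a, -0.48 to 0.17 for Ccl24, -0.17 to 0.07 for Ccl27a and -0.11 to 0.56 for Cxcl13. Between NASH+Exercise and Control they ranged from -0.56 to 0.14 for Ccr9 and -0.52 to 0.54 for Cxcr5, and between NASH and Control from -0.14 to 0.13 for Xcr1. None of these was called with the settings used. Depth limits the 22 genes that had too few counts for a test.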
